A study of Oryza sativa with 6 samples.

Results

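The 9 genes described here are stress-related WRKY transcription factor genes of rice: OsWRKY24 (Os01g0826400), OsWRKY30 (Os08g0499300), OsWRKY53 (Os05g0343400) and OsWRKY70 (Os05g0474800) of group I, OsWRKY28 (Os06g0649000), OsWRKY62 (Os09g0417800), OsWRKY71 (Os02g0181300) and OsWRKY76 (Os09g0417600) of group IIa, and OsWRKY45 (Os05g0322900) of group III. They were chosen by name, with earlier results of these data known. The study had reported the group I genes as upregulated by Hg on these arrays. The direction of the 9 genes is therefore not independent evidence. Every array probe whose design name starts with one of the 9 loci was taken. This gave 21 of the 41906 probes that name a locus, and 9 of 29690 genes. The roots were those of 6-day-old seedlings of Oryza sativa cv. TN-67, and the labels name no transgene or mutation. The long-term group was treated with Hg for 24 h, and its reference was water-treated roots. The short-term group was RNA pooled from roots after 1 h and 3 h of Hg, again against water-treated roots, so a change at 1 h cannot be told apart from one at 3 h. The dose was 25 µM by the study's methods, while the sample labels give the same number in mM. Each exposure had 3 biological replicates by the study's methods, each on its own 2-colour array with Cy5 for the Hg RNA and Cy3 for the RNA of the control. No array had the dyes swapped, so a dye effect cannot be told apart from Hg. Whether the exposures had separate control RNA is not stated. The RNA came from root tips by the study's methods, and fewer cells of a type cannot be told apart from less RNA per cell in such samples.

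WRKY proteins are plant transcription factors that carry a conserved WRKY domain and bind a short DNA element called the W-box, which is common in the promoters of defence genes and of WRKY genes themselves. Group I proteins have a pair of WRKY domains and include substrates of mitogen-activated protein kinases (MAPKs), which pass on signals of pathogens, wounding and abiotic stress. Group IIa proteins have 1 WRKY domain and are best known in rice as modulators, often repressors, of defence against bacteria and fungi, and OsWRKY45 acts in salicylic acid signalling as an activator of blast resistance. No sequence of these genes was in the files used here, so none is shown. The locus names place OsWRKY24 on chromosome 1, OsWRKY71 on chromosome 2, OsWRKY45, OsWRKY53 and OsWRKY70 on chromosome 5, OsWRKY28 on chromosome 6, OsWRKY30 on chromosome 8, and OsWRKY62 and OsWRKY76 on chromosome 9. In RefSeq's gene table of the ASM3414082v1 assembly, no gene lay between OsWRKY76 and OsWRKY62.

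The long-term arrays correlated at r = 0.885 to 0.929 with each other over all genes, the short-term arrays at 0.911 to 0.919, and arrays of different exposures at 0.375 to 0.500. The long-term arrays shared a slide that held no short-term array, and the short-term arrays lay on 2 further slides, so long-term exposure and its slide cannot be told apart. The root silicon transporter genes OsNIP2;1 (Os02g0745100) and Os03g0107300 were well above background in both channels on 6 of 6 arrays, with mean log2 ratios of 1.83 and 0.86 at long-term and -1.51 and -1.20 at short-term exposure. The green tissue genes were also well above background, on 6 of 6 arrays for the photosystem I subunit gene Os09g0481200 and on all 5 arrays with a value for the chlorophyll a/b binding protein gene Os03g0592500. Os09g0481200 had log2 ratios of 2.16 at long-term and 1.87 at short-term exposure, and Os03g0592500 had 0.41 at long-term and 0.05 at short-term exposure. The part of these marker genes in any result was not tested. Well above background is a mark that the scanner software gave to each spot and channel. Signals of different arrays were not scaled to each other, except for the lower bounds given below. The median signal of a long-term array was 336 to 410 in the Hg channel and 336 to 405 in the control channel. That of a short-term array was 207 to 309 in the Hg channel and 202 to 301 in the control channel. The log2 ratio is that of the Hg over the control signal of a probe within an array, and a gene is represented by its probe with the highest mean signal. Genes were called at an adjusted p under 0.05 (limma, Benjamini-Hochberg over all genes tested) with at least a 2-fold change. The median log2 ratio of all genes was -0.06 at long-term and -0.13 at short-term exposure. Of the called genes, 60.0% were upregulated at long-term and 58.9% at short-term exposure. These shares were 72.5% and 82.5% after normexp background correction with loess normalization, which together moved the short-term median of all genes to 0.00, and the short-term share was 69.0% when each array was centred on its median.

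With long-term Hg exposure 6 of the 9 WRKY genes were upregulated, against a background of 9.02% of 21842 genes tested, and with short-term exposure 9 of 9 were, against a background of 11.6% of 21816 genes. The genes not called at long-term exposure were OsWRKY28, OsWRKY53 and OsWRKY71. None was downregulated at either exposure. The counts include the group I genes, which the study had already reported as upregulated on these arrays. All 9 genes were chosen with earlier results of these data known, so the counts are not independent evidence. The median log2 ratio of the 9 genes was 2.14 at long-term and 2.83 at short-term exposure. With OsWRKY70, whose control was near background, at its lower bound, the medians were 1.92 at long-term and 2.83 at short-term exposure. The lowest gene was OsWRKY53 with 0.34 at long-term and OsWRKY30 with 1.72 at short-term exposure. The response at long-term exposure was lower than that at short-term exposure for 5 of 9 genes by a test of the difference itself, against a background of 10.1% of 21815 genes. These were OsWRKY24, OsWRKY28, OsWRKY53, OsWRKY70 and OsWRKY71, and the median difference of the 9 genes was -1.47 on the log2 scale, beside 0.04 over all genes. For these 5 genes every long-term array lay below every short-term array, as it did for 28.9% of 21056 genes measured on all arrays. No WRKY gene had a called difference in the other direction, against a background of 9.23%. By the methods' t-test on the same values, 2 of 9 genes at long-term and 3 of 9 at short-term exposure passed the same threshold after Benjamini-Hochberg adjustment, against 4.17% of 21798 genes at long-term and 4.33% of 21708 at short-term exposure. At an unadjusted p it called 3 of 9 at long-term and 8 of 9 at short-term exposure, beside 1689 of all genes at long-term and 2251 at short-term exposure.

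**Figure D1:**
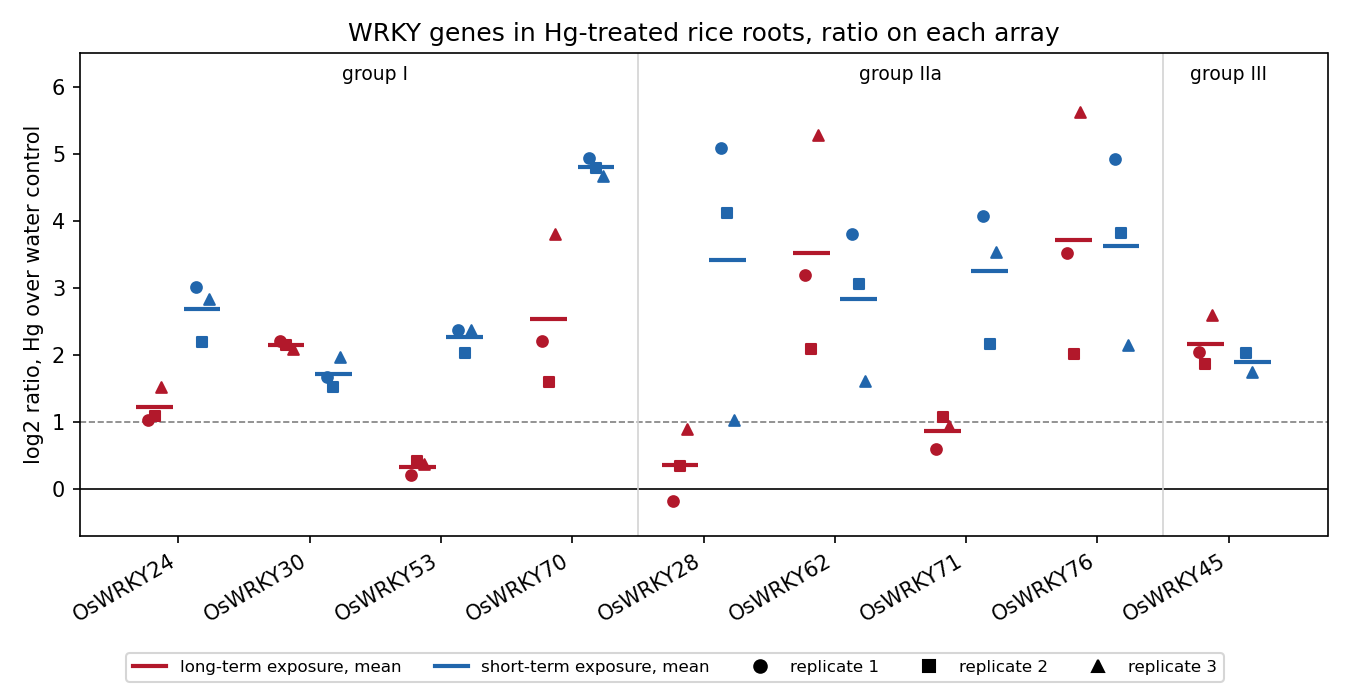
Log2 ratio of the Hg over the control signal (vertical axis) of the 9 WRKY genes on each array, with 3 long-term arrays (left of each gene, red) and 3 short-term arrays (right, blue); symbols are replicates, horizontal bars are means, and the dashed line is a 2-fold change. The long-term means of OsWRKY53, OsWRKY28 and OsWRKY71 lie under 1, while every short-term mean is at or above 1.72.

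The group I genes were OsWRKY24, OsWRKY30, OsWRKY53 and OsWRKY70, of which 3 of 4 were upregulated at long-term and 4 of 4 at short-term exposure. OsWRKY53, known as a positive regulator of rice blast resistance and a MAPK substrate, had Hg signals of 7459, 8043 and 7804 on the long-term arrays, against 6412, 6028 and 6007 in the control channel. At short-term exposure its Hg signals were 30650, 24937 and 19065, against 5906, 6081 and 3686 in the control channel. The Hg and control signals did not overlap in either exposure, but the long-term gap was small. OsWRKY53 had a log2 ratio of 0.34 ± 0.10 at long-term exposure (SD, n = 3, adjusted p = 0.018, under 2-fold) and of 2.26 ± 0.19 at short-term exposure (SD, n = 3, adjusted p = 3.3e-05). Its difference was -1.92 (95% interval -2.24 to -1.61, adjusted p = 3.0e-04), the narrowest interval among the 9 genes. Its second probe, AY676929, gave 0.83 at long-term and 2.37 at short-term exposure. The control signals of that probe were 3097, 2040 and 2159 on the long-term arrays and 950.0, 1063 and 925 on the short-term arrays, while its Hg signals ran from 3893 to 4505 at long-term and from 4246 to 5505 at short-term exposure. As unscaled signals, the control channels of the exposures did not overlap for this probe, and the Hg channels did. The median Hg signal of an array was also higher at long-term (336 to 410) than at short-term exposure (207 to 309). These signals therefore do not tell which channel of the probe differed between the exposures.

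OsWRKY24, a group I gene known as a regulator of hormone responses in rice cells, had Hg signals of 3869, 4090 and 4107 on the long-term arrays, against 1892, 1916 and 1424 in the control channel. On the short-term arrays its Hg signals were 21768, 15801 and 11969, against 2696, 3441 and 1670 in the control channel. OsWRKY24 was thus above the control on every array of both exposures. Its log2 ratio was 1.22 ± 0.27 at long-term exposure (SD, n = 3, adjusted p = 0.0014) and 2.68 ± 0.43 at short-term exposure (SD, n = 3, adjusted p = 7.2e-05). The difference was -1.47 (95% interval -2.06 to -0.88, adjusted p = 0.0039). Its other probes, AK107199 and AY341849, gave 1.44 and 1.48 at long-term and 3.73 and 3.74 at short-term exposure, with differences of -2.29 and -2.26.

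OsWRKY30, which enhances resistance to blast and drought in rice when overexpressed, was the group I gene whose response was not lower at 24 h. Its Hg signals on the long-term arrays were 488, 679 and 666, against 106, 154 and 157 in the control channel. On the short-term arrays they were 299, 219 and 197, against 93.8, 76.2 and 50.0, the last of which was not well above background. OsWRKY30 had a log2 ratio of 2.14 ± 0.06 at long-term exposure (SD, n = 3, adjusted p = 7.2e-05) and of 1.72 ± 0.23 at short-term exposure (SD, n = 3, adjusted p = 5.1e-05). All long-term ratios lay above all short-term ratios, and the difference of 0.42 (95% interval 0.09 to 0.75) had an adjusted p of 0.041 but was under 2-fold. Under the alternative settings of the limma fit, the difference of OsWRKY30 had an adjusted p of 0.015 to 0.11. Its second probe, AK062027, gave 2.16 at long-term and 1.74 at short-term exposure.

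OsWRKY70, known in rice for a part in the balance of herbivore defence and growth, was dim. Its Hg signals were 69.9, 68.4 and 69.7 on the long-term arrays and 193, 346 and 294 on the short-term arrays, all well above background. Its control signals were not well above background on any array, at 15.1, 22.6 and 4.99 on the long-term and 6.35, 12.6 and 11.6 on the short-term arrays. Its upregulation was therefore only bounded, at least 3.78-fold at long-term and at least 12.4-fold at short-term exposure. The bounds were not tested. For the bound alone, signals were first scaled between arrays by quantile normalization of their average intensity. The bound then sets the mean Hg signal against the lowest control signal of probes well above background on each array. Where the probe's own control signal was higher, that was used. The fitted log2 ratios and their tests rest on these dim control signals. The ratios were 2.54 ± 1.14 at long-term (SD, n = 3, adjusted p = 0.0016) and 4.79 ± 0.13 at short-term exposure (SD, n = 3, adjusted p = 1.2e-04). Their difference was -2.26 (95% interval -3.53 to -0.98, adjusted p = 0.013). With normexp and loess the ratios were 0.52 at long-term, which was under 2-fold, and 2.15 at short-term exposure. Both were below the bounds, which hold only for the signals as deposited. The unscaled Hg signals of the exposures did not overlap.

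**Figure D2:**
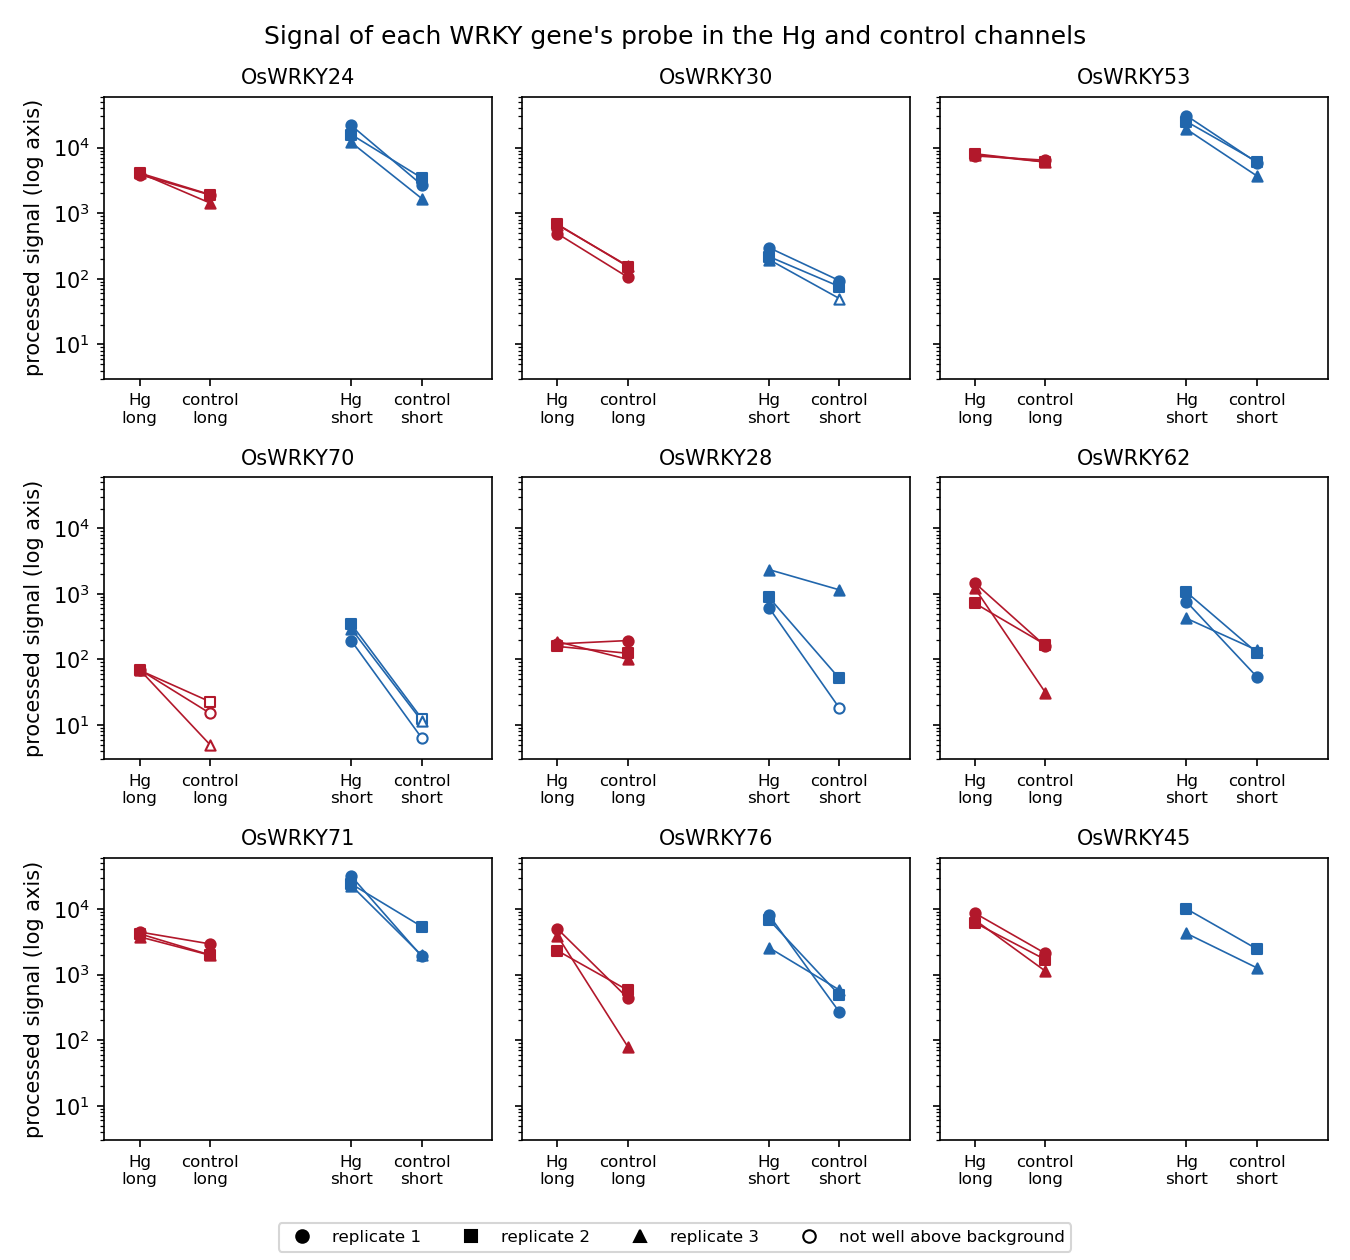
Processed signal (vertical log axis, arbitrary units) of the probe that represents each WRKY gene, in the Hg channel and the control channel of each array, joined by a line within an array; red is long-term and blue is short-term exposure, and open symbols are control signals not well above background. The control signals of OsWRKY70 are open on all 6 arrays, and OsWRKY28 has a control signal of 1151 on short-term replicate 3.

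The group IIa genes were OsWRKY28, OsWRKY62, OsWRKY71 and OsWRKY76. All 4 were upregulated at short-term exposure and 2 of 4, OsWRKY62 and OsWRKY76, at long-term exposure. OsWRKY71, known in rice for defence signalling and as a repressor of gibberellin signalling in aleurone cells, had Hg signals of 4455, 4182 and 3760 on the long-term arrays, against 2929, 1986 and 1967 in the control channel. Its short-term Hg signals were 31666, 24068 and 22764, against 1888, 5385 and 1959 in the control channel. Short-term replicate 2 thus had the highest control signal. The log2 ratio of OsWRKY71 was 0.87 ± 0.24 at long-term exposure (SD, n = 3, adjusted p = 0.056) and 3.26 ± 0.98 at short-term exposure (SD, n = 3, adjusted p = 3.0e-04). The difference was -2.38 (95% interval -3.51 to -1.26, adjusted p = 0.0070), and the second probe, AK058773, gave a difference of -2.74 (adjusted p over all probes = 0.0021).

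OsWRKY28, known as a negative regulator of basal defence against blast, had the largest fitted difference among the 9 genes and the largest spread between short-term replicates. Its Hg signals were 173, 158 and 187 on the long-term arrays, against 194, 124 and 101 in the control channel, so long-term replicate 1 was below its control. On the short-term arrays its Hg signals were 619, 886 and 2346, against 18.2, 51.3 and 1151, of which the first was not well above background. Short-term replicate 3 stood apart in both channels. The log2 ratio was 0.36 ± 0.53 at long-term exposure (SD, n = 3, adjusted p = 0.68) and 3.41 ± 2.12 at short-term exposure (SD, n = 3, adjusted p = 0.0053), where the replicates gave 5.09, 4.11 and 1.03. The difference was -3.05 (95% interval -5.45 to -0.65, adjusted p = 0.043). Without short-term replicate 3 the difference was -4.24 (adjusted p = 0.0027), and without any other single array it missed the threshold (adjusted p = 0.071 to 0.12).

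The second OsWRKY28 probe, AK106282, did not stand apart on that array. Its Hg signals there were 143, 150 and 159 on the long-term and 521, 790 and 929 on the short-term arrays. Its control signals were 156, 118 and 72.5 on the long-term and 5.73, 46.6 and 12.1 on the short-term arrays, and of the short-term ones only that of replicate 2 was well above background. This probe gave log2 ratios of 0.45 at long-term and 5.62 at short-term exposure, with a difference of -5.17 (adjusted p over all probes = 0.0015). The probes gave nearly the same long-term ratio. At short-term exposure they differed most on replicate 3, with 1.03 and 6.27, and also on replicate 1, with 5.09 and 6.51. On replicate 3 only the higher value rests on a control signal not well above background, and on replicate 1 both values do. For both probes the unscaled control signals on the long-term arrays exceeded those on the short-term arrays, apart from short-term replicate 3 of the first probe.

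OsWRKY62 and OsWRKY76, repressors of defence in rice whose loci are adjacent, were upregulated in both exposures. OsWRKY62 had Hg signals of 1464, 718 and 1211 on the long-term arrays, against 160, 168 and 31.3 in the control channel. At short-term exposure its Hg signals were 759, 1062 and 423, against 54.2, 127 and 138 in the control channel. The Hg signals lay above the control signals on every array. The log2 ratio of OsWRKY62 was 3.52 ± 1.61 at long-term exposure (SD, n = 3, adjusted p = 0.0034) and 2.83 ± 1.12 at short-term exposure (SD, n = 3, adjusted p = 0.0073). The difference of 0.69 was not called, and its 95% interval, from -1.47 to 2.85, allows over a 2-fold difference either way.

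OsWRKY76 had Hg signals of 5001, 2321 and 3915 on the long-term arrays, against 437, 576 and 79.3 in the control channel. On the short-term arrays its Hg signals were 8129, 6879 and 2580, against 269, 487 and 582 in the control channel. Long-term replicate 3 had the lowest control signal for both genes. OsWRKY76 had a log2 ratio of 3.72 ± 1.82 at long-term exposure (SD, n = 3, adjusted p = 0.0051) and of 3.63 ± 1.40 at short-term exposure (SD, n = 3, adjusted p = 0.0049). The difference was 0.09 (95% interval -2.43 to 2.60, adjusted p = 0.95). Its other 3 probes ranged from 2.82 to 3.47 at long-term and from 2.47 to 3.46 at short-term exposure, and all 4 probes were upregulated in both.

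The adjacent genes were high and low on the same arrays. The log2 ratios of OsWRKY62 were 3.19, 2.10 and 5.27 on the long-term and 3.81, 3.06 and 1.61 on the short-term arrays. Those of OsWRKY76 were 3.52, 2.01 and 5.62 on the long-term and 4.92, 3.82 and 2.15 on the short-term arrays. In both genes the highest array was long-term replicate 3, the next was short-term replicate 1, and the lowest pair was long-term replicate 2 and short-term replicate 3. The root mean square difference between the genes over the 6 arrays was 0.62. Among pairs of the 8 WRKY genes with values on all arrays only OsWRKY24 and OsWRKY71 were closer, at 0.60, and the remaining pairs ran from 0.72 to 2.91. Pairs with OsWRKY70 rest on control signals near background. Genes on other chromosomes were closer to OsWRKY62 than OsWRKY76 was, Os10g0503300 at 0.40 and Os07g0127700 at 0.59.

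OsWRKY45 had Hg signals of 8626, 6154 and 6798 on the long-term arrays, against 2097, 1689 and 1127 in the control channel. On short-term replicates 2 and 3 its Hg signals were 10030 and 4247, against 2449 and 1264 in the control channel, and the spot on short-term replicate 1 was left out because the scanner software had marked it as an outlier. The Hg signals lay above the control signals on all 5 arrays. The log2 ratio of OsWRKY45 was 2.17 ± 0.38 at long-term exposure (SD, n = 3, adjusted p = 3.1e-04) and 1.89 ± 0.20 at short-term exposure (SD, n = 2, adjusted p = 5.4e-04). The difference of 0.27 was not called (95% interval -0.34 to 0.89, adjusted p = 0.39).

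The 4 probes of OsWRKY45 did not all agree. Probes AK105939 and AK066255 gave 2.05 and 2.15 at long-term and 1.94 and 2.22 at short-term exposure, close to the representing probe. Probe AK063697 gave 0.60 at long-term exposure, under 2-fold, and 1.55 at short-term exposure. Its Hg signals were 276, 323 and 279 on the long-term and 338, 292 and 194 on the short-term arrays. Its control signals were 225, 182 and 175 on the long-term and 108, 98.7 and 71.1 on the short-term arrays. As unscaled signals, the control channels of this probe did not overlap between the exposures and the Hg channels did. The median control signal of an array was also higher at long-term (336 to 405) than at short-term exposure (202 to 301). These signals therefore do not tell which channel differed between the exposures. The probe's difference of -0.95 (adjusted p over all probes = 0.0033) was just under 2-fold. Which transcript of the locus each probe measures was not tested.

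**Figure D3:**
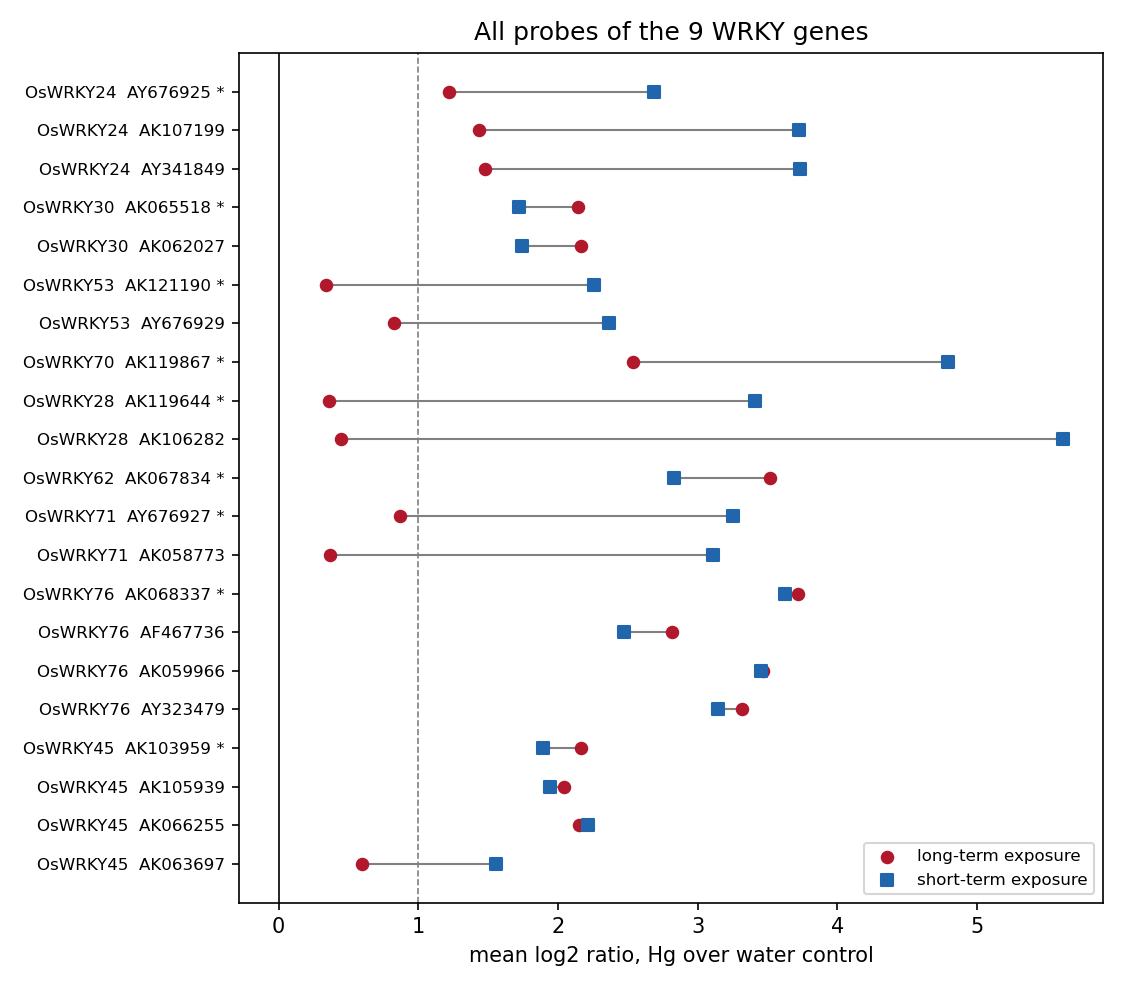
Mean log2 ratio of Hg over control (horizontal axis) of all 21 probes of the 9 WRKY genes at long-term (red circle) and short-term (blue square) exposure; an asterisk marks the probe that represents the gene, and the dashed line is a 2-fold change. Every probe lies between 1.55 and 5.62 at short-term exposure, while 7 of 21 probes, those of OsWRKY53, OsWRKY28 and OsWRKY71 and AK063697 of OsWRKY45, lie under the dashed line at long-term exposure.

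Over all probes, 14 of 21 were upregulated at long-term exposure, against a background of 8.38% of 31322 probes, and 21 of 21 at short-term exposure, against 11.1% of 31283 probes. The 10 probes of OsWRKY24, OsWRKY28, OsWRKY53, OsWRKY70 and OsWRKY71 had differences of -1.47 to -5.17 between the exposures, and the 11 probes of the other genes had differences of -0.95 to 0.69. Probes of 1 gene share their RNA and array and are not replicates. All 21 passed the minimum signal of 100 in at least 1 channel on at least 1 array.

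OsWRKY70 has no place in an order of the log2 ratios, since its control signals stayed near background. In the order of the other 8 genes at long-term exposure, OsWRKY76 and OsWRKY62 came first, followed by OsWRKY45, OsWRKY30, OsWRKY24, OsWRKY71, OsWRKY28 and OsWRKY53. Only OsWRKY30 and OsWRKY24 were neighbours whose arrays did not overlap, with OsWRKY30 at 2.08 to 2.21 and OsWRKY24 at 1.03 to 1.53. At short-term exposure the order was OsWRKY76, OsWRKY28, OsWRKY71, OsWRKY62, OsWRKY24, OsWRKY53, OsWRKY45 and OsWRKY30. Neighbours overlapped there except OsWRKY53 (2.04 to 2.38) and OsWRKY45 (1.75 to 2.03), whose ranges nearly touched. OsWRKY45 had 2 arrays there, and with the outlier spot kept, as in the deposited log2 table, its mean was 2.24, close to that of OsWRKY53. The order is thus one of ratios, not of transcript levels, which cannot be set against each other between probes.

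**Figure D4:**
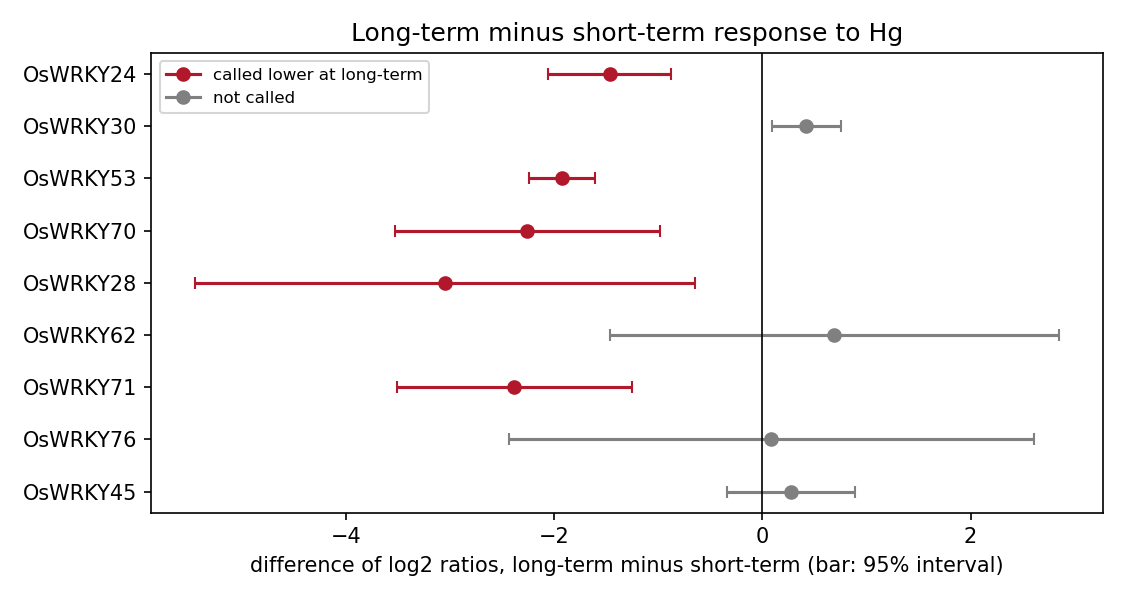
Difference of the log2 ratios, long-term minus short-term exposure (horizontal axis), for each WRKY gene, with its 95% interval from the limma fit (bars); red marks genes called lower at long-term exposure. The intervals of OsWRKY28, OsWRKY62 and OsWRKY76 are the widest, and that of OsWRKY30 lies above 0 but under 1.

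The WRKY genes were set beside 11 other WRKY genes that the study tabulated because they changed on these arrays, so that their direction is not independent evidence. Of these 5 of 11 were upregulated at long-term and 8 of 11 at short-term exposure, against backgrounds of 9.02% and 11.6% of all genes. Their medians were 0.87 at long-term and 2.33 at short-term exposure on the log2 scale. The difference was called lower for 4 of 11 and higher for 1 of 11, against backgrounds of 10.1% lower and 9.23% higher. Os05g0537100 had a log2 ratio of 0.61 at long-term and 4.45 at short-term exposure, a difference of -3.84 (adjusted p = 3.1e-04). Os06g0158100 had 0.03 at long-term and 2.33 at short-term exposure (difference -2.30, adjusted p = 0.0011), and Os05g0571200 had 2.26 at long-term and 4.09 at short-term exposure (difference -1.83, adjusted p = 0.020), but its control signal was well above background on only 1 short-term array. For Os01g0714800 neither channel was well above background at long-term exposure, and it was upregulated at least 11.9-fold at short-term exposure, against a control not well above background. Os01g0584900 was upregulated at least 2.50-fold at long-term and at least 8.89-fold at short-term exposure, and Os01g0626400 had log2 ratios of 2.41 at long-term and 3.02 at short-term exposure. The gene with the higher response at long-term exposure, Os05g0129800, was chosen after its values were seen. It was upregulated at least 8.90-fold at long-term exposure, and at short-term exposure neither channel was well above background.

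MAP kinase kinases (MAPKKs) phosphorylate MAPKs, which in turn phosphorylate group I WRKY proteins, and 22 of 24 such kinase genes tabulated by the study could be tested. At long-term exposure 0 of 22 were upregulated and 2 were downregulated, and at short-term exposure 4 were upregulated and 1 was downregulated. The background of upregulated genes was 9.02% at long-term and 11.6% at short-term exposure. The background of downregulated genes was 6.02% at long-term and 8.10% at short-term exposure. The median log2 ratio of these kinase genes was -0.14 at long-term and 0.29 at short-term exposure. The MAPK gene Os03g0285800 had a log2 ratio of 0.28 ± 0.18 at long-term and 2.23 ± 0.18 at short-term exposure (SD, n = 3 each, difference -1.94, adjusted p = 3.3e-04). The MAPKK gene Os02g0787300 had -0.51 ± 0.12 at long-term and 1.15 ± 0.58 at short-term exposure (SD, n = 3 each, difference -1.66, adjusted p = 0.0041). The other genes upregulated at short-term exposure, named after their values were seen, were the MAPKK gene Os03g0225100 with 1.66 and the MAPK gene Os02g0135200 with 1.55. Os05g0576800 was downregulated in both exposures, with -1.63 at long-term and -1.22 at short-term exposure, and Os06g0191300, also named after its values were seen, at long-term exposure only, with -1.09 at long-term and -0.59 at short-term exposure. The difference of Os06g0191300 was -0.51, under 2-fold. Os01g0629900 had -0.58 at long-term and 0.42 at short-term exposure (adjusted p of the difference = 0.0010), and Os01g0643800 had 0.68 at long-term and -0.76 at short-term exposure (difference 1.44, adjusted p = 0.0026).

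Genes of rice defence that are linked in the field to WRKY factors were also tabulated by the study because they changed on these arrays. Of 8 such genes, 7 were upregulated at long-term and 8 at short-term exposure, against backgrounds of 9.02% and 11.6% of all genes. Since the list was taken from changed genes, its direction is not independent evidence. The median log2 ratios were 4.30 at long-term and 3.92 at short-term exposure. The NPR1-like gene Os01g0194300, of a family of salicylic acid receptors, was the one not called at long-term exposure and is named after its values were seen, with 0.40 ± 0.06 at long-term and 2.07 ± 0.38 at short-term exposure (SD, n = 3 each, difference -1.66, adjusted p = 0.0011). Some of the list lie in the chromosome 4 cluster for momilactone synthesis, the diterpene phytoalexins of rice. Of these Os04g0180400, a cytochrome P450 of the CYP99A family, had 4.31 at long-term and 6.11 at short-term exposure (difference -1.79, adjusted p = 0.049). Os04g0179700, a terpene synthase gene, had 3.06 at long-term and 7.41 at short-term exposure (difference -4.35, adjusted p = 0.050, not called), and its control signal was well above background on 2 long-term arrays and 1 short-term array. This gene and Os04g0178300 had values on 2 of the 3 short-term arrays, since outlier spots were left out. Os04g0179200 had 4.29 at long-term and 5.64 at short-term exposure, and Os04g0178300, the copalyl diphosphate synthase gene, had 5.03 at long-term and 4.20 at short-term exposure. PBZ1 (Os12g0555200), a pathogenesis-related gene of the PR10 family, had 4.35 at long-term and 3.46 at short-term exposure. Another cytochrome P450 gene, Os02g0569900, also named after its values were seen, had 5.03 at long-term and 3.03 at short-term exposure, and its difference of 2.00 was called higher (adjusted p = 0.028), with a control signal well above background on 2 long-term arrays and 1 short-term array. The bHLH gene Os01g0196300 had 2.39 at long-term and 3.64 at short-term exposure (difference -1.25, adjusted p = 0.0050), with a control signal well above background on 3 long-term arrays and 1 short-term array.

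For each WRKY gene the most similar genes were those with the smallest root mean square difference of log2 ratio over the 6 arrays, 3 genes each, which is a description and not a test. The closest likeness was that of OsWRKY53 with Os02g0539500, which had no description in the study's table, at 0.07. OsWRKY53 was also close to a rhomboid-like gene, Os01g0283500, at 0.14 and to an acyl-CoA thioesterase gene, Os04g0558400, at 0.15. OsWRKY24 was nearest to Os06g0233800, a conserved hypothetical gene, at 0.16, and OsWRKY30 to Os06g0188600, without a description, at 0.12. The third gene most like OsWRKY30, at 0.16, was Os09g0481200, the photosystem I subunit gene. OsWRKY70 was nearest to the indole-3-glycerol phosphate synthase gene Os09g0255400, of tryptophan synthesis, at 0.41, but the ratios of OsWRKY70 rest on control signals near background. OsWRKY62 was nearest to a benzoyl transferase gene, Os10g0503300, at 0.40 and to the pathogenesis-related protein 1 gene Os07g0127700 at 0.59, followed by OsWRKY76. OsWRKY71 was nearest to Os02g0467000 at 0.26 and OsWRKY28 to Os07g0191900 at 0.47. OsWRKY45 lacked short-term replicate 1 and had no such measure.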

How the data were processed

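Per the file headers, Agilent Feature Extraction (version 10.7.1.1) measured the intensity of each spot in both channels, and the deposited signals were background-subtracted and dye-normalized within each array. The log10 ratio of Cy5 over Cy3 deposited by the authors came from the same software. A table of log2 values was also deposited by the authors, with scale and direction unstated, and equalled the log2 ratio of the scanner files on every array (median differences under 1e-06). No values of the authors' own comparisons were used.

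Log2 ratios were obtained as 3.32 times the log10 ratios, without control spots and without spots marked as outliers, as the mean over a probe's spots. As in the study's methods, probes that never reached 100 in either channel on the 6 arrays were dropped, which left 21843 genes, each represented by its probe with the highest mean signal. The limma package (3.58.1) in R (4.3.3), with tables handled in data.table (1.17.8), fitted 1 model over all 6 arrays with both exposures as coefficients (4 residual degrees of freedom, prior 2.44), and the code was tested on simulated data. The number of arrays limits the precision, as does the dimness of some control signals. In the normexp alternative (offset 50, then loess) the median signals of the spots were used. Each array held 3610 to 8474 spots whose ratio is exactly 0 in the files.

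The WRKY genes and the other lists were chosen with earlier results of these data known. All 9 WRKY genes were named. From the other lists, genes called in both exposures or with a called difference were named, at most 6 per list by the size of the short-term log2 ratio, and the few others are marked where they appear. RefSeq's gene table matched 0 of 9 loci by identifier and 4 of 9 genes by symbol, and gene names and roles come from the study and its tables or are background.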

Additional observations from a re-analysis of the deposited data

Results flagged for a closer look

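The response to Hg differed between the exposures, by the limma contrast of long-term minus short-term log2 ratios, for 5 of the 9 WRKY genes. The differences were -1.47 for OsWRKY24, -1.92 for OsWRKY53, -2.26 for OsWRKY70, -3.05 for OsWRKY28 and -2.38 for OsWRKY71, with adjusted p-values of 0.0039, 3.0e-04, 0.013, 0.043 and 0.0070 in that order. For OsWRKY70 no array had a control signal well above background, and the control signal of OsWRKY28 stood apart on short-term replicate 3. Every long-term array came from another slide than the short-term arrays, so exposure and slide cannot be told apart. Single arrays were not tested as outliers.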

How the results depend on the processing

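Of the values of single WRKY genes under the alternatives, 351 kept their direction and side of the threshold, 19 lost the call and 8 turned in direction. The methods' t-test called 2 WRKY genes upregulated at long-term exposure in place of 6 and 3 at short-term exposure in place of 9. It called 3 and 5 of the other WRKY genes in place of 5 and 8, 2 and 3 defence genes in place of 7 and 8, and 0 kinase genes downregulated at short-term exposure in place of 1. With normexp 1 kinase gene was downregulated at long-term exposure in place of 2 and 0 at short-term exposure in place of 1, and OsWRKY70 lost its call at long-term exposure. The cause was not tested. The turns in direction were all in differences that were not called. The difference of OsWRKY76 was -0.26 with normexp, and leaving out each array in turn it ranged from -0.87 (without long-term replicate 3) to 0.94, with -0.65 without short-term replicate 3. That of OsWRKY62 ranged from -0.18 (without long-term replicate 3) to 1.41. That of OsWRKY45 was -0.072 with the deposited log2 table, -0.20 with the mean of the probes, -0.066 with probe AK066255 and -0.95 with probe AK063697. Leaving out each array in turn gave 6 WRKY genes upregulated at long-term and 9 at short-term exposure every time, and 4 to 5 with a lower difference. Without the filter on dim probes OsWRKY28 lost its call (adjusted p = 0.099).

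The exposures share replicate numbers, but same-numbered arrays did not deviate together (correlations of -0.23, 0.02 and -0.18), so the numbers were not taken to pair the samples. With the replicate number as a block the difference of OsWRKY28 kept its value of -3.05 and missed the threshold (adjusted p = 0.077), no other WRKY gene changed its call, and over all genes 2158 differences were called lower in place of 2211 and 1939 higher in place of 2014.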
